A study of Homo sapiens with 6 samples.

Results

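The 10 genes described here encode chaperones and oxidoreductases of the endoplasmic reticulum (HSPA5, HSP90B1, CALR, PDIA3, PDIA4, PDIA6 and DNAJB11), the co-chaperone DNAJB9, the degradation factor HERPUD1, and XBP1, the transcription factor that drives many genes of this kind. They were chosen by gene symbol, all 10 had a row among the 13271 genes of the deposited table, and all 10 passed the filter on low values and were tested. RNA was measured 48 h after lipid-mediated transient transfection in 6 libraries of 5637, a human bladder cancer cell line: 3 from cells given a MAT1A expression plasmid (MAT1A libraries) and 3 from cells given an empty vector (control libraries). MAT1A encodes the liver-type methionine adenosyltransferase, which makes S-adenosylmethionine. Both groups shared the cell line, medium and transfection reagent, and the labels give neither the promoter of the plasmid nor the share of cells that took it up. Whether the 3 libraries of a group came from separate cultures is not stated, so the p-values speak only to the spread among these libraries, and that spread may be technical.

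Secreted and membrane proteins fold in the endoplasmic reticulum, where the Hsp70 chaperone HSPA5 (BiP), the Hsp90 paralogue HSP90B1 (GRP94) and the lectin chaperone CALR bind them and protein disulphide isomerases join their cysteines. When unfolded proteins build up, the sensors ERN1 (IRE1), ATF6 and EIF2AK3 (PERK) start the unfolded protein response: ERN1 splices XBP1 mRNA into the form that encodes an active factor, ATF6 is cut to release another, and EIF2AK3 slows translation and raises ATF4. ATF6 and spliced XBP1 bind elements in the promoters of chaperone and degradation genes. The values here are per gene, so spliced and unspliced XBP1 mRNA were counted together.

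The promoter elements are shown because they are the sequence feature by which this response is known to reach these genes. RefSeq promoter windows (GRCh38.p14) were found for 9 of the 10 genes by symbol, all but PDIA3, and the 250 bases before each annotated start were searched on both strands for exact matches to the endoplasmic reticulum stress element (ERSE), to ERSE-II and to the core of the unfolded protein response element (TGACGTGG); the motifs were searched separately, and none of the matches printed overlaps another. ERSE was found in 5 of the 9 genes, against 16 of 10043 tested genes with a window (0.159%), ERSE-II in 1 of the 9, against 14 of 10043 (0.139%), and the third motif in 0 of the 9, against 101 of 10043 (1.01%). The matches, each read 5′ to 3′ on the strand of the gene with 5 bases on either side, have the fixed letters of the motif in capitals.
HSPA5, chr9:125241386-125241414, minus strand: cttcaCCAATcggcggcctCCACGacggg
HSP90B1, farther from the start, chr12:103930211-103930239, plus strand: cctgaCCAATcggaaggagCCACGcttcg
HSP90B1, nearer to the start, chr12:103930316-103930344, plus strand: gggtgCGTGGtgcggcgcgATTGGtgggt
CALR, chr19:12938379-12938407, plus strand: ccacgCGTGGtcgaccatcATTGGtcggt
PDIA6, chr2:10812848-10812876, minus strand: ccggaCCAATgagccgcagCCACGgcttg
XBP1, chr22:28800598-28800626, minus strand: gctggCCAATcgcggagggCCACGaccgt
HERPUD1 (ERSE-II), chr16:56932020-56932040, plus strand: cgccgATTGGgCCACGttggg
The match lay 66 to 48 bases before the start in HSPA5, 52 to 34 in XBP1 and 117 to 107 in HERPUD1. In CALR and in the nearer match of HSP90B1 the motif reads on the opposite strand, and the other matches read on the strand of the gene. A match is a description of the letters and not a measured binding site. The genes without a printed match lie at chr15:43746392-43773279 (PDIA3, plus strand), chr7:149003062-149028641 (PDIA4, minus strand), chr3:186567403-186585800 (DNAJB11, plus strand) and chr7:108569568-108574850 (DNAJB9, plus strand) in GRCh38.

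Depth was 17390421 to 21570890 assigned reads per library. MAT1A itself had values of 1805, 1834 and 1917 in the MAT1A libraries, against 1.09, 0.253 and 4.54 in the control libraries, so every library fitted its label. Markers of the cell line gave high sums in all 6: 15 of 17 urothelial and epithelial markers had a value, none at 0, and summed to 12333 to 13559 in MAT1A and 11553 to 11846 in control libraries, while UPK1A and UPK3A, markers of the most differentiated urothelial cells, were not analysed here. Not every marker was high: KRT7 had means of 3352 in MAT1A and 3353 in control libraries, but UPK2 only 0.870 and 0.832. Transcripts that a bladder line does not normally make differed between the groups. The 15 skeletal muscle markers with a value, of 16 listed, summed to 100.3, 50.1 and 47.6 in the MAT1A libraries, against 511, 161 and 102 in the control libraries, and none was at 0 in any library. Every control library lay above every MAT1A library, with control replicate 1 the highest, and 13 of the 15 were called lower in MAT1A libraries (limma, median log2 change -1.52). Of 14 tested urothelial and epithelial markers, 7 were called higher and 1 lower. Over all tested genes 4.01% were called higher and 7.4% lower. Of 8 listed blood cell markers, 2 had a value, LYZ and HBB, summing to 5.92 to 28.3 in MAT1A and 27.0 to 53.8 in control libraries. Most of this was HBB, a globin of red cells (27.4, 7.20 and 5.87 in MAT1A, 52.2, 33.9 and 26.2 in control libraries), so the sum is no measure of immune cells. Fibroblast markers (4 of 8) summed to 121 to 129 in MAT1A and 143 to 260.3 in control libraries, and the endothelial list rested on VWF (1 of 4), at 0.755 to 1.13 in MAT1A and 0.579 to 0.918 in control libraries. The part of these transcripts in the results below was not tested beyond the fits given with them. In bulk samples, fewer cells of a type and less RNA per cell cannot be told apart. Whether the muscle, globin and fibroblast transcripts came from cells in these cultures at all was not tested.

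The endoplasmic reticulum chaperones were slightly higher in cells given MAT1A. HSPA5, HSP90B1, CALR, PDIA3, PDIA4 and PDIA6 rose, with means 7.44% to 12.7% above control, and no member fell. DNAJB11 lay higher without passing the test, DNAJB9 and HERPUD1 overlapped between the groups, and XBP1 lay lower without passing. Thus 6 of the 10 were called higher, where 4.01% of the 12866 tested genes were called higher and 11.4% in either direction (limma on log2(value + 1), Benjamini-Hochberg adjusted p under 0.05 over all tested genes). The called members had higher values than all uncalled ones, and smaller SEs (0.029 to 0.032, against 0.039 to 0.086). DNAJB11 was not called although its log2 change (0.12) exceeded those of PDIA3 (0.11) and PDIA6 (0.10). The 4.01% covers tested genes of every level. A comparison with genes of similar level was not tested, here or for the lists below. With each library's muscle level as a covariate 0 of the 10 were called (0.715% of all tested genes called higher). The muscle markers themselves differed between the groups, with 13 of 15 called lower in MAT1A libraries (7.4% of all tested genes without the covariate). The median log2 change, MAT1A minus control, was 0.11 over the 10 genes and 0.004 over all tested genes.

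**Figure D1:**
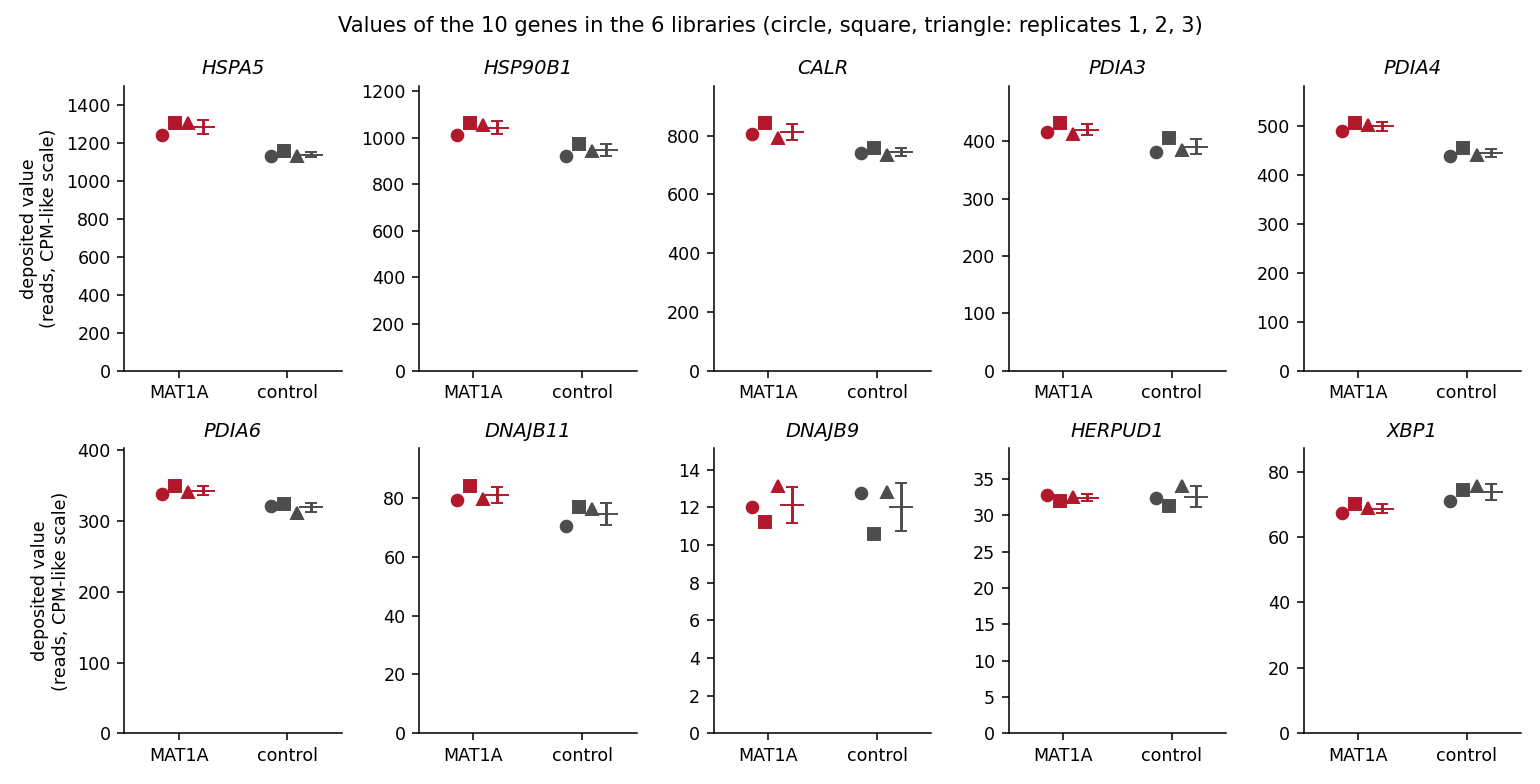
Deposited value (reads on a CPM-like scale, axes from 0) of each of the 10 genes, with 1 point per library, MAT1A left and control right; bars are mean ± SD over 3 libraries. HSPA5 sits between 1242 and 1307 in MAT1A and between 1131 and 1157 in control libraries, whereas the groups overlap for DNAJB9 and HERPUD1.

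HSPA5, the Hsp70 chaperone that also holds the stress sensors inactive, had values of 1242, 1307 and 1307 in MAT1A libraries 1, 2 and 3, against 1131, 1157 and 1132 in control libraries 1, 2 and 3. Every MAT1A library lay above every control library, and the gap was wider than the spread within either group. The means were 1286 ± 37.7 and 1140.15 ± 14.7 (SD, n = 3 each), which gave 0.17 ± 0.03 as the log2 change with its SE (limma adjusted p = 0.00121). HSP90B1, which folds integrins and Toll-like receptors among other clients, had 1011, 1063 and 1054 in MAT1A and 919.7, 971 and 944 in control libraries. Its groups did not overlap, and its means of 1043 ± 27.6 and 945 ± 25.6 differed by a log2 change of 0.14 ± 0.03 (adjusted p = 0.00732). CALR, calreticulin, a calcium-binding lectin that holds newly made glycoproteins, had 806, 843 and 791 in MAT1A and 742, 758 and 734 in control libraries. Again no control library reached the lowest MAT1A value, and the log2 change was 0.13 ± 0.03 (adjusted p = 0.0133). HSPA5 passed with each single library left out, HSP90B1 missed without control replicate 1 (adjusted p = 0.0662), and CALR missed without control replicate 1 (0.0678) or 3 (0.0931).

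Protein disulphide isomerases form and rearrange disulphide bonds. Those among the 10 genes, PDIA3, PDIA4 and PDIA6, all rose, and the differences between their changes were not tested. Outside the 10, and named after their values were seen, P4HB (log2 change 0.11, limma adjusted p = 0.0507) and PDIA5 (0.06, adjusted p = 0.55) were not called. PDIA4 had 490.4, 507 and 502 in MAT1A libraries and 440.2, 456 and 442 in control libraries, the second largest log2 change of the 10 at 0.16 ± 0.03 (limma adjusted p = 0.0013). PDIA3 (ERp57), which works with calreticulin on glycoproteins, had 416, 432 and 413 in MAT1A libraries and 381, 406 and 385 in control libraries. Its lowest MAT1A library was close to control replicate 2, and the log2 change of 0.11 ± 0.03 passed narrowly (adjusted p = 0.0437). PDIA6, which acts on clients of HSPA5 and can switch off ERN1, had 338, 350.0 and 341 in MAT1A libraries and 322, 324 and 312 in control libraries, a log2 change of 0.10 ± 0.03 (adjusted p = 0.0351). The groups of PDIA3 and PDIA6 did not overlap. With each library left out in turn, PDIA3 stayed called in 2 of 6 fits (log2 change 0.086 to 0.13, adjusted p up to 0.202), missing without MAT1A replicate 1 or 2 or control replicate 1 or 3. PDIA6 stayed called in 1 of 6, that without MAT1A replicate 3 (log2 change 0.086 to 0.11, adjusted p up to 0.189).

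Neither J-domain co-chaperone of HSPA5 passed the test. DNAJB11 (ERdj3), which hands unfolded proteins to HSPA5, had 79.2, 84.2 and 79.5 in MAT1A libraries and 70.5, 77.1 and 76.2 in control libraries. These groups did not overlap, and the log2 change of 0.12 ± 0.04 missed the threshold (limma adjusted p = 0.0913; 95% interval 0.026 to 0.21). With the replicate number as a block DNAJB11 passed (adjusted p = 0.0285), and 7 of the 10 were then called higher against 7.57% of all tested genes. It also passed after correction for a trend with exon length and GC content (log2 change 0.17, adjusted p = 0.0111; 7 of 10, against 5.95% of all genes) and with both together (adjusted p = 0.000672; 7 of 10, against 8.94%). DNAJB9 (ERdj4), an XBP1 target that targets proteins for degradation and brings HSPA5 to ERN1, had 12.02, 11.2 and 13.1 in MAT1A libraries and 12.7, 10.6 and 12.8 in control libraries. The lowest and the second lowest of these 6 values came from replicate 2 of each group, and the log2 change was 0.01 (95% interval -0.17 to 0.19; adjusted p = 0.947). DNAJB9 had the fewest reads of the 10, down to 209 in a library against up to 28041 for HSPA5.

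HERPUD1, which anchors the machinery that retrieves misfolded proteins for the proteasome and is a target of ATF6, ATF4 and XBP1, did not differ beyond the spread. Its values were 32.8, 32.0 and 32.5 in MAT1A libraries, all within the control values of 32.4, 31.2 and 34.1. The log2 change was -0.005 (95% interval -0.11 to 0.10; limma adjusted p = 0.966). XBP1 had 67.3, 69.9 and 68.9 in MAT1A libraries and 71.1, 74.4 and 75.7 in control libraries. Every MAT1A library lay below every control library, with means of 68.7 ± 1.32 and 73.7 ± 2.40 (SD, n = 3 each). Even so, the log2 change of -0.10 ± 0.04 (SE) missed the threshold (limma adjusted p = 0.117), also with the replicate block (adjusted p = 0.0641). By overlap, 7 of the 10 genes lay higher, 1 lower and 2 overlapped; over all tested genes 30.3% did not overlap, 14.7% higher and 15.6% lower.

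**Figure D2:**
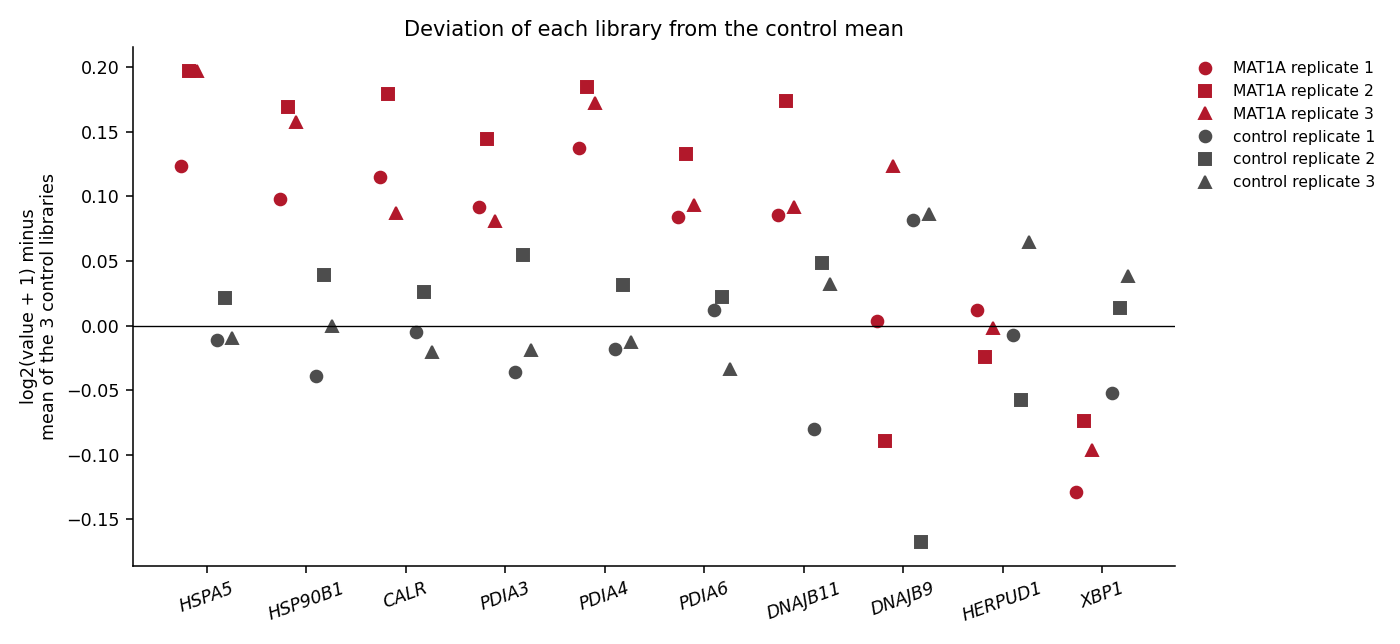
Log2(value + 1) of each library minus the mean of the 3 control libraries, for each gene along the x axis; red points are MAT1A and grey points control libraries, and the shape gives the replicate number. For the 6 called genes all MAT1A points lie above all control points, replicate 2 is the highest control library, and XBP1 shows the opposite order of the groups.

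Ratios between 2 of the genes within a library do not depend on how the libraries were scaled. HSPA5 was 18.4, 18.7 and 19.0 times XBP1 in MAT1A libraries, against 15.9, 15.6 and 15.0 times in control libraries. The mean log2 ratio was 0.27 higher in MAT1A libraries (4.23 ± 0.02 against 3.95 ± 0.05, SD, n = 3 each). The two-sided exact permutation p was 0.1, the smallest that 3 against 3 libraries allow. HSPA5 lay higher and XBP1 lower in every MAT1A library than in every control library. The groups therefore could not overlap in this ratio, and its p-value adds nothing to the values of the 2 genes. The log2 ratio of HSPA5 to HERPUD1 was 0.18 higher (exact permutation p = 0.1) and that of HSPA5 to DNAJB9 0.16 higher (p = 0.3). The ratio of HSP90B1 to HSPA5, the most abundant pair by value, was 0.814, 0.813 and 0.806 in MAT1A libraries and 0.813, 0.839 and 0.834 in control libraries, a log2 difference of -0.03 (exact permutation p = 0.2). Adjusted over these 4 ratios, the p-values were 0.2, 0.2, 0.3 and 0.267.

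Levels were compared between genes per kilobase of annotated exon. By this measure HSPA5 was the most abundant of the 10, at 329 ± 9.65 in MAT1A and 292 ± 3.76 in control libraries (SD, n = 3 each, deposited value per kilobase). CALR followed at 299.8 and 274, HSP90B1 at 222 and 201, PDIA4 at 153 and 136, PDIA3 at 99.1 and 92.1 and PDIA6 at 83.6 and 77.8. Below them came XBP1 at 22.7 and 24.3, DNAJB11 at 14.1 and 13.0, HERPUD1 at 6.29 and 6.32 and DNAJB9 at 4.27 and 4.24. The order was the same in both groups, and no neighbours in it overlapped between libraries of a group. It depends on the length used, the union of all annotated exons of a gene (2714 bases for CALR, 5731 for DNAJB11). That length may exceed the transcripts these cells make, which was not tested. Together the 10 genes took 0.446%, 0.463% and 0.458% of the column total in MAT1A libraries, against 0.413%, 0.425% and 0.416% in control libraries.

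Several of these genes share exon sequence with a neighbour, and the library kit does not mark strand, so their reads cannot be told apart there. PDIA6 shares 1033 exon bases with ATP6V1C2 on the opposite strand, whose mean value was 1.36 in MAT1A and 1.09 in control libraries. DNAJB11 shares 381 bases with TBCCD1 (13.5 and 13.0; log2 change 0.05, limma adjusted p = 0.702) and HSP90B1 121 bases with C12orf73 (8.46 and 7.51; log2 change 0.15, adjusted p = 0.293). DNAJB9 shares 183 bases with THAP5, which is more abundant and fell (22.8 ± 0.33 in MAT1A, 26.8 ± 0.63 in control libraries; log2 change -0.23, adjusted p = 0.011), and 99 bases with PNPLA8 (34.3 and 37.0). Among annotated processed copies, PDIA3P1 had means of 5.77 and 5.90 and HSP90B2P of 0.567 and 0.691, small beside PDIA3 and HSP90B1.

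Among 10550 other tested genes with a mean value of at least 5, the profile over the 6 libraries that lay closest to that of HSPA5 was that of VAMP8, followed by PDIA4, HTATSF1, KARS and GPRC5A. Likeness was the largest absolute distance between log2 profiles centred on their own means, 0.020 for VAMP8 and 0.021 for PDIA4. Of the other members, HSP90B1 ranked number 10 at 0.034, PDIA6 278, DNAJB11 456, PDIA3 595 and CALR 752. HERPUD1, XBP1 and DNAJB9 ranked 4953, 6180 and 7218, so most members were not among the genes closest to HSPA5. The profiles closest to XBP1 were those of ODC1 (0.010), TGFB1, RPE, ARHGAP22 and ETAA1. All comparisons share the same 6 libraries.

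Some of the other folding genes of the endoplasmic reticulum rose as well. Of 40 tested folding factors outside the 10, 5 rose and 0 fell, with a median log2 change of 0.06, where 4.01% of all tested genes rose and 7.4% fell (limma). TMX2, a membrane protein of the thioredoxin family, had 120.0, 117 and 116 in MAT1A libraries and 101, 102 and 104 in control libraries (log2 change 0.20, limma adjusted p = 0.0011). HYOU1, an exchange factor of HSPA5, had 193, 189 and 187 in MAT1A and 175, 173 and 166 in control libraries (log2 change 0.15, adjusted p = 0.0074). ERP29, a redox-inactive chaperone, had 169, 168 and 163 against 147, 152 and 153 (log2 change 0.14, adjusted p = 0.0081), and the remaining called genes were GANAB and PPIB, named after their values were seen. CANX, the membrane-bound partner of calreticulin and also chosen after its value was seen, had means of 1169 ± 35.1 and 1119.8 ± 15.3 and did not pass (log2 change 0.06, adjusted p = 0.209). The count called higher was 2 without control replicate 1 or 3 (1.81% and 1.72% of all tested genes), where ERP29 or HYOU1 missed. It was 3 without MAT1A replicate 1 (over all tested genes, 320 of 12791) and 9 without MAT1A replicate 3 (668 of 12801). In the last of these fits 2 were called lower (988 of 12801). With the replicate block 11 were called higher and 3 lower, against 974 and 1336 of all 12866 tested genes. With the muscle covariate it was 1 higher and 0 lower, against 92 and 318 of the 12866.

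Of 27 tested genes of endoplasmic reticulum-associated degradation, the pathway that HERPUD1 serves, 0 rose and 0 fell (limma, median log2 change 0.04). Over all tested genes 4.01% rose and 7.4% fell. The 2 with the smallest p were AUP1, which recruits a ubiquitin-conjugating enzyme (169 ± 5.26 in MAT1A, 157 ± 1.14 in control libraries; adjusted p = 0.066), and UBE2G2, that enzyme (147 ± 3.76 and 138 ± 2.39; adjusted p = 0.0946). With the replicate block 3 genes of this list were called higher (7.57% of all tested genes). Without MAT1A replicate 2 or 3, 1 was called higher (over all tested genes, 477 of 12794 and 668 of 12801). DERL3 was not analysed here.

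Of 42 tested genes of the translocon, glycosylation and export, 7 rose and 1 fell, with a median log2 change of 0.04, where 4.01% of all tested genes rose and 7.4% fell. DDOST and RPN1, subunits of the oligosaccharyltransferase, had means of 403 ± 9.002 and 497 ± 9.14 in MAT1A libraries, against 362 ± 5.61 and 456 ± 3.87 in control libraries (log2 changes 0.16 and 0.13; limma adjusted p = 0.0025 and 0.0087). SRP14 rose (299 ± 6.19 and 275 ± 7.39; log2 change 0.12, adjusted p = 0.0196), whereas SRP9, its partner in the Alu domain of the signal recognition particle, fell, with 96.7, 87.4 and 92.8 in MAT1A and 129.8, 109.8 and 129.6 in control libraries (log2 change -0.41, adjusted p = 0.000102). With the replicate block, 12 genes of this list were called higher (7.57% of all tested genes), and with the muscle covariate 1 (0.715%). Without control replicate 1 or 3 only 2 were called higher (1.81% and 1.72%). RPN1 missed without control replicate 1, and SRP14 missed in both of these fits.

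Among the sensors of the unfolded protein response, ERN1 fell, and ATF6 and EIF2AK3 did not pass the test. Of 18 tested genes of sensing and signalling, 0 rose and 2 fell, with a median log2 change of 0.02, where 4.01% of all tested genes rose and 7.4% fell (limma). ERN1, the endonuclease and kinase that splices XBP1 mRNA, had 23.5, 20.2 and 23.7 in MAT1A libraries and 26.9, 31.1 and 28.5 in control libraries. The groups did not overlap, and the log2 change was -0.35 ± 0.07 (SE; adjusted p = 0.0035), called with every single library left out (adjusted p up to 0.025). PPP1R15B, a phosphatase subunit that reverses the phosphorylation by EIF2AK3, had 95.0, 93.7 and 101.5 against 109, 105 and 107 (log2 change -0.14, adjusted p = 0.0234), and missed without MAT1A replicate 1 or control replicate 1 or 3. The other sensors, named after their values were seen, gave log2 changes of 0.03 for ATF6 (adjusted p = 0.685) and -0.01 for EIF2AK3 (adjusted p = 0.937).

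In the branch downstream of EIF2AK3 and ATF4, 7 of 20 tested genes fell and 1 rose, with a median log2 change of -0.12. Over all tested genes 7.4% fell and 4.01% rose. The count called lower was 4 without control replicate 1 (over all tested genes, 552 of 12742) or 2 (722 of 12741). It was 2 without control replicate 3 (530 of 12754). ATF3, a stress-induced transcription factor, had 23.1, 20.8 and 20.5 in MAT1A libraries, against 44.0, 52.6 and 51.3 in control libraries (log2 change -1.16, limma adjusted p = 3.1e-09). PPP1R15A (GADD34), a stress-induced phosphatase subunit, had 188, 189 and 179.5 in MAT1A libraries and 279.6, 302 and 302 in control libraries (log2 change -0.66, limma adjusted p = 1.3e-09). ASNS, asparagine synthetase, was near the low end of the table, with 0.485, 0.514 and 0.559 against 1.03, 1.41 and 1.64 (log2 change -0.63, or -1.22 with a pseudocount of 0.1). Only its control libraries reached the filter value of 1, so ASNS was tested only through the group where it was high. With the filter of at least 5, which leaves ASNS out, 6 genes of this list were called lower (over all tested genes, 826 of 10590). The riser was SLC3A2, an amino acid transporter subunit (773 ± 33.4 and 667 ± 8.83; log2 change 0.21). Named after their values were seen, DDIT3 (CHOP) had 5.82, 7.04 and 6.43 against 8.32, 8.09 and 9.84 (log2 change -0.39, adjusted p = 0.0136; missed without MAT1A replicate 1 or control replicate 3), and ATF4 differed by -0.10 (adjusted p = 0.045; not called in 5 of 6 fits with a library left out).

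Cytosolic and mitochondrial heat shock proteins, set beside the endoplasmic reticulum chaperones as the nearest other chaperone list, gave 6 called higher and 1 lower of 24 tested. Their median log2 change was 0.07, and 4.01% of all tested genes were called higher and 7.4% lower. HSPD1, the mitochondrial chaperonin, had 929 ± 13.6 in MAT1A and 836 ± 10.4 in control libraries (log2 change 0.15, limma adjusted p = 0.002). TRAP1, a mitochondrial Hsp90, rose by a log2 change of 0.20 (adjusted p = 0.003) and HSPA4 by 0.12 (adjusted p = 0.0157). The called log2 changes among the 10 genes were 0.10 to 0.17, and the difference between the lists was not tested. DNAJB4 fell (14.2 ± 1.99 and 18.1 ± 0.59; log2 change -0.34, adjusted p = 0.0144). The count called higher was 2 without control replicate 1 or 3 (1.81% and 1.72% of all tested genes), where HSPA4 and DNAJB4 missed. It was 3 without MAT1A replicate 1 (over all tested genes, 320 of 12791) and 4 without control replicate 2 (366 of 12741). With the replicate block it was 9 (7.57% of all tested genes). With the muscle covariate 0 were called higher and 0 lower, against 92 and 318 of all 12866 tested genes.

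**Figure D3:**
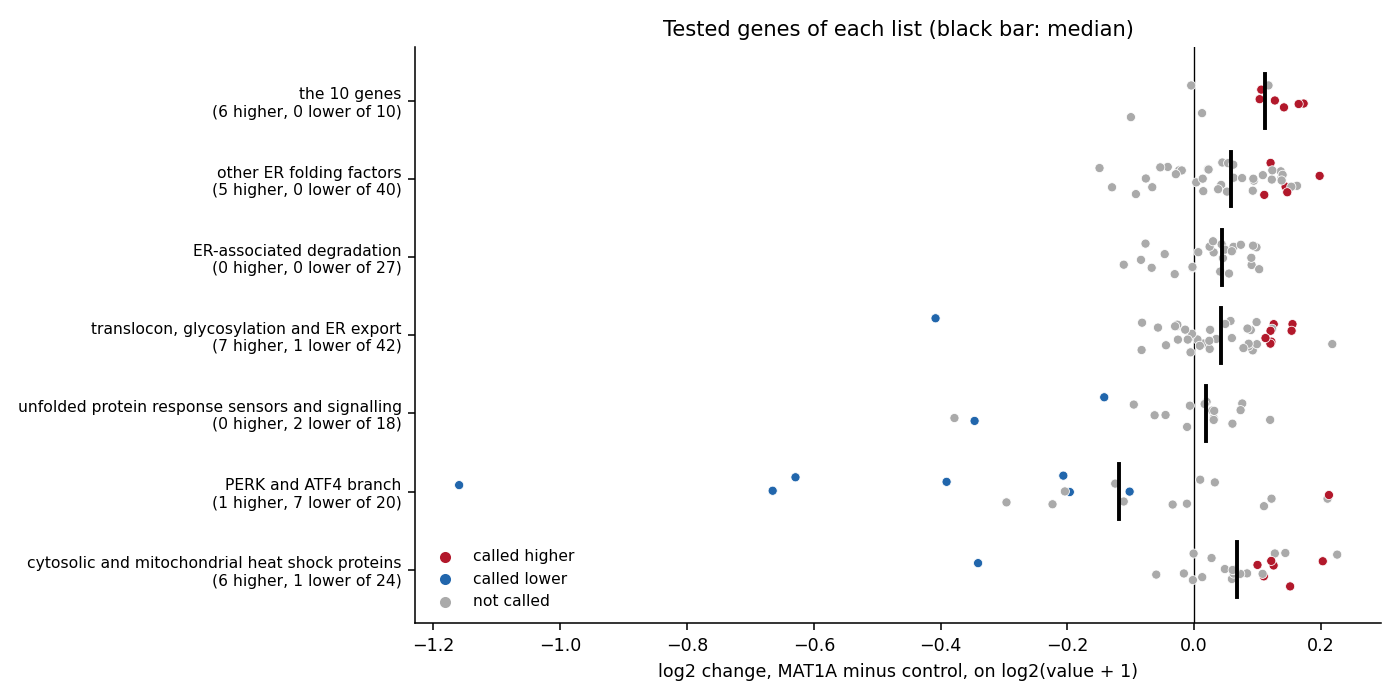
Log2 change (MAT1A minus control, x axis) of every tested gene in 7 lists; red points were called higher, blue points called lower and grey points not called, and the black bar is the list's median. The median is 0.11 for the 10 genes and -0.12 for the branch of EIF2AK3 (PERK) and ATF4.

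Genes with an ERSE in their promoter window did not all change. Of the 16 tested genes with this motif, 4 were called higher, all of them among the 10 (HSPA5, HSP90B1, CALR and PDIA6), and 2 were called lower (SYNPO and TRIM5). The median log2 change of the 16 was 0.01. Over all tested genes 4.01% were called higher and 7.4% lower. Among those not called were XBP1, whose window holds the full element shown above, and, named after their values were seen, CANX and CRELD2 (log2 change 0.09, limma adjusted p = 0.327). Of the 14 tested genes with ERSE-II, HYOU1 and RUVBL2 were called higher and 0 lower, with a median of -0.01, and HERPUD1 was not called. PDIA4, which changed nearly as much as HSPA5, had no exact match in the 250 bases searched; that says only that these letters are not in the window.

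**Figure D4:**
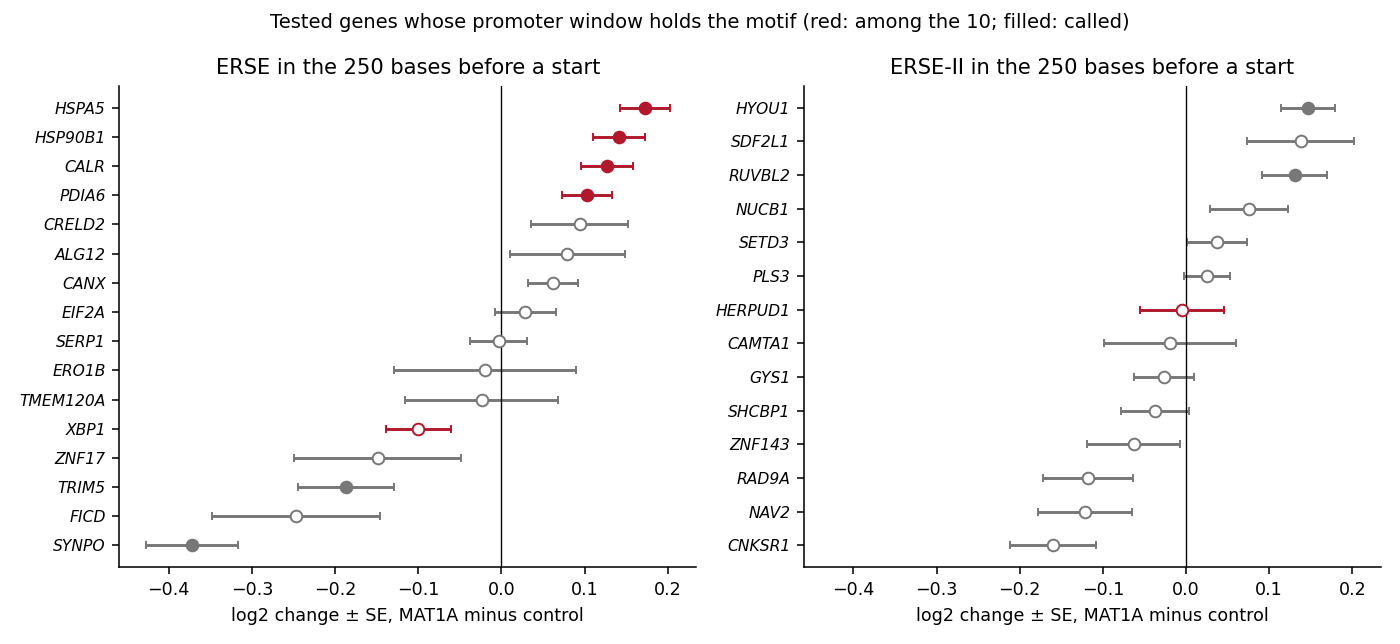
Log2 change ± SE (MAT1A minus control, x axis) of the tested genes with an ERSE (left) or ERSE-II (right) in the 250 bases before an annotated start, ordered by value; red points are among the 10 genes and filled points were called. HSPA5, HSP90B1, CALR and PDIA6 lead the left panel, and XBP1 (-0.10) and HERPUD1 (-0.005) lie below 0.

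The number of the 10 genes called changed with the libraries and the fit. It was 4 without MAT1A replicate 1 or 2 (called higher over all tested genes, 320 of 12791 and 477 of 12794). It was 6 without MAT1A replicate 3 (668 of 12801) and 5 without control replicate 2 (366 of 12741). Without control replicate 1, the library with the highest muscle level, HSPA5 and PDIA4 were called (2 of 10; 1.81% of all genes called higher), with log2 changes of 0.17 and 0.16. Without control replicate 3, HSPA5, HSP90B1 and PDIA4 were called (3 of 10; 1.72% of all genes). In the fit with the muscle covariate, which called 0 of the 10, 0.715% of all tested genes were called higher, and the log2 change was 0.14 for HSPA5 (limma adjusted p = 0.132), 0.14 for PDIA4 (adjusted p = 0.123) and 0.092 for HSP90B1 (adjusted p = 0.38). With library size taken without MAT1A, 4 of the 10 were called (3.19% of all genes called higher). This setting divided each library by its column total without MAT1A, so it also replaced the authors' library factor. Full column totals were 1005617 to 1015443 in MAT1A and 997732 to 1002942 in control libraries. HSPA5 and PDIA4 were called in 15 of 16 alternative fits, all but the one with the muscle covariate.

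**Figure D5:**
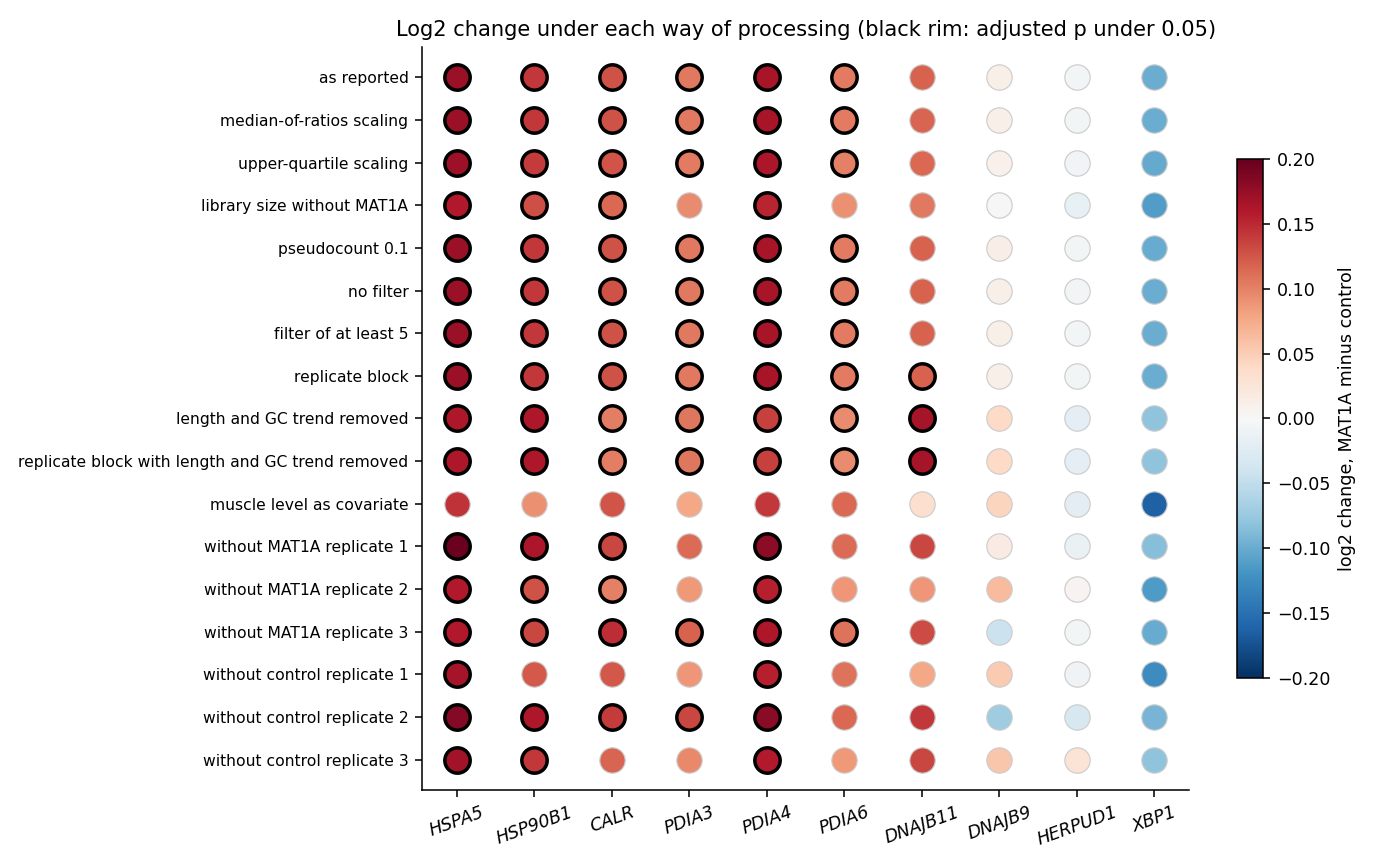
Log2 change (colour, MAT1A minus control) of each of the 10 genes as reported and under each alternative way of processing; a black rim marks an adjusted p under 0.05. HSPA5 and PDIA4 keep the rim under every setting except the muscle covariate, DNAJB11 gains it under 3 settings, and XBP1 is below 0 under all of them.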

How the data were processed

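Per the labels' protocols, total RNA of 5637 cells was made into TruSeq RNA version 2 libraries and sequenced with 36-cycle reads. STAR 2.6.0c, featureCounts, edgeR and hg38 are named in the submitters' processing notes (annotation and settings: not given in the sources used here). Each deposited value is a signal, made by the authors from the reads of a gene by division by a library factor, which puts it close to a CPM (column totals 997732 to 1015443). Within each library every value was a whole multiple of 1 step (tolerance 0.001 reads). This step gave the depth, and 3 reads equal 0.140 to 0.172 on the deposited scale, a limit from counting error only because duplicate molecules could not be removed.

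The design held a count test and limma for scaled values. The values are scaled, so limma 3.58.1 (R 4.3.3) with an intensity trend was fitted to log2(value + 1). It took the 12866 genes reaching 1 in at least 3 libraries, with Benjamini-Hochberg adjustment over all of them. The log2(value + 1) scale understates fold changes of low genes. Pairs of libraries of 1 group differed by more than sampling noise (chi-square per degree of freedom 1.86 to 4.36). Same-numbered libraries of the groups deviated together once group means were removed (correlations 0.25, 0.18 and 0.19 for numbers 1, 2 and 3). No label states a pairing, so the reported fit left the replicate numbers out. The fit with the replicate number as a block is given as an alternative.

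Members and gene lists were chosen with earlier results of these data known. Named genes are all 10 members, MAT1A, up to 3 called genes per direction of each list (or 2 where none was called), and the 5 genes most like HSPA5 or XBP1. Others are marked as named after their values were seen, or are cell type markers, exon neighbours, copies or called genes with a promoter motif. Exon lengths and overlaps come from GENCODE release 29 (13192 of 13271 symbols matched) and promoter windows from RefSeq, both on GRCh38, the build of hg38. The fit was tested on simulated data with independent libraries. These held neither the shared deviations of same-numbered libraries nor the muscle difference between the groups, so that test does not vouch for the calls here.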

Additional observations from a re-analysis of the deposited data

How the results depend on the processing

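Alternatives were median-of-ratios and upper-quartile scaling, library size without MAT1A, a pseudocount of 0.1, no filter, a filter of at least 5, the replicate block, correction for a trend with exon length and GC content (alone and with the replicate block), the muscle level as a covariate, and each library left out in turn. Count models on recovered reads were left out. The number of the 10 genes called higher was 6, ranged from 2 to 6 with a library left out, and was 0 with the muscle covariate; it was 7 with the replicate block and 4 with library size without MAT1A, where PDIA3 and PDIA6 missed (adjusted p = 0.0598 and 0.0521). The number called lower was 0 in each of these fits. The cause of the lower counts was not tested. The median log2 change of the 10 genes lay between 0.089 and 0.14 with a library left out. Over all tested genes, 516 were called higher and 952 lower; these became 974 and 1336 with the replicate block, 1150 and 1383 with the replicate block and the length and GC correction, and 92 and 318 with the muscle covariate, and ranged from 219 to 668 and from 530 to 988 with a library left out. DNAJB9 changed sign without MAT1A replicate 3 (-0.043) and without control replicate 2 (-0.071), and HERPUD1 without MAT1A replicate 2 (0.0053) and without control replicate 3 (0.028); with a library left out they ranged from -0.071 to 0.063 and from -0.033 to 0.028. The replicate block changed the call of DNAJB11 and of no other member. DNAJB9, with as few as 209 reads in a library, had the widest interval of the 10.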
